A study of Mus musculus with 36 samples.

Results

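Cd163, Mrc1, Msr1, Lyve1, Vsig4, Folr2, Cbr2, Mertk, Axl and Trem2 are 10 genes, most of them known as uptake receptors of tissue macrophages, that were followed by name through single-cell UMI counts from the mouse heart. A UMI is a short random tag that counts 1 captured RNA molecule once. The members were taken by symbol, and all 10 were listed in the count tables. They were described in 623 macrophage-like wells among the 3127 wells used. These 3127 were the wells with at least 1000 UMIs of nuclear genes, out of 13824 wells on 36 plates, after 19 wells whose counts repeated those of another well were set aside (11 of them macrophage-like, 7 at day 14 sham and 4 at IR day 1).

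By their labels, all samples came from male C57BL/6 mice of 8 weeks, and cells were sorted singly from the left ventricle into plates. Sham-operated hearts gave 4 plates at day 1 and 8 tables at day 14. Ischaemia-reperfusion (IR) was a 1-hour ligation of the left anterior descending artery followed by reflow, with 9 plates at day 1, 7 at day 3 and 3 at day 14. Permanent ligation of the same artery, called MI, gave 5 plates, all at day 3. All MI plates carried a processing label of their own, so the effect of the ligation and that of the batch cannot be told apart. Day 14 sham replicates 2 and 7 held the same plate and counted once. Several plates can share a mouse, since the study's methods give 3 mice per condition, so p-values over plates may be too small.

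Scavenger receptors are surface proteins with which macrophages bind and internalise modified lipoproteins, dead cells, haemoglobin and microbes. Cd163 takes up haemoglobin bound to haptoglobin. Mrc1, the mannose receptor CD206, binds glycans, and Msr1, the class A scavenger receptor, binds modified lipoproteins. Lyve1 binds hyaluronan and is found on lymphatic endothelium as well as on macrophages along vessels, while Vsig4 is a complement receptor. Folr2 is a folate receptor. Cbr2 is not a receptor but a carbonyl reductase that is read as a companion of the resident pattern. Mertk and Axl are receptor tyrosine kinases of the TAM family, which bind dying cells through the bridging ligands Gas6 and Pros1. Trem2 binds lipids and signals through Tyrobp. In the resting heart, long-lived resident macrophages carry Lyve1, Folr2 and related genes, and monocytes that enter after injury do not carry them at first.

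On GRCm38, Cd163 lies at chr6:124304656-124330527, Mrc1 at chr2:14229392-14332057, Msr1 at chr8:39581685-39642673, Lyve1 at chr7:110850607-110863239 and Vsig4 at chrX:96247203-96293438. Folr2 lies at chr7:101839988-101857194, Cbr2 at chr11:120729489-120732114, Mertk at chr2:128698956-128802894, Axl at chr7:25757273-25788705 and Trem2 at chr17:48346401-48354147. RefSeq promoters (GRCm38.p6) were matched for 8 of the 10 members, and not for Msr1 and Lyve1. The 4 members that rose between day 1 and day 3 of IR in macrophage-like wells are shown, as the 250 bases before each RefSeq start, 5′ to 3′ on the gene's strand. Folr2 has 2 RefSeq starts. Capitals mark 3 motifs searched on both strands: GAGGAA (a core that PU.1 binds), TGCTGA (a MAF half-site) and TGANTCA (an AP-1 site). The windows are chrX:96293439-96293688 (minus strand) for Vsig4, chr7:101857191-101857440 and chr7:101845332-101845581 (minus strand) for Folr2, chr11:120732022-120732271 (minus strand) for Cbr2 and chr17:48346151-48346400 (plus strand) for Trem2.
Vsig4: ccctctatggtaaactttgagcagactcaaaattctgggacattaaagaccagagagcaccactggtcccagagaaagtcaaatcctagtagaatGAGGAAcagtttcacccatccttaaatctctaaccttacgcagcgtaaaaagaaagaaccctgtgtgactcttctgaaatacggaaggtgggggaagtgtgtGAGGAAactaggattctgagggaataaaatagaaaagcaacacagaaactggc
Folr2 start 1: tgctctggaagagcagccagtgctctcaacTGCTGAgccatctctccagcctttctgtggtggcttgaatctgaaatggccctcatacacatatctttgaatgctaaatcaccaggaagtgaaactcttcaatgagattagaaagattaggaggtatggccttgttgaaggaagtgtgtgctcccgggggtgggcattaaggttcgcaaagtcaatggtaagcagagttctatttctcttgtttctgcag
Folr2 start 2: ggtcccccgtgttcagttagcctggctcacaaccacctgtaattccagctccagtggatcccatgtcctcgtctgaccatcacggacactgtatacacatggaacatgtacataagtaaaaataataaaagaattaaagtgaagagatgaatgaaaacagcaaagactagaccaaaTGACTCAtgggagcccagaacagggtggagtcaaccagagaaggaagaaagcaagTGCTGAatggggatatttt
Cbr2: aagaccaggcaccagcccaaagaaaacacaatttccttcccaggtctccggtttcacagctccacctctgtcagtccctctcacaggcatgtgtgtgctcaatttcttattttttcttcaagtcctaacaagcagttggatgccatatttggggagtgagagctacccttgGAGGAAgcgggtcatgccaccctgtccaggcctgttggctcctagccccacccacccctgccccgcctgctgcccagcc
Trem2: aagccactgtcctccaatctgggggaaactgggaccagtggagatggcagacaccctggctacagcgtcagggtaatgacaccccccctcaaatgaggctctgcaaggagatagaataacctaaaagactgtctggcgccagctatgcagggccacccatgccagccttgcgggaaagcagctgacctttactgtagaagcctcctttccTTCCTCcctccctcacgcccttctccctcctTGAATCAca

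The Vsig4 window held GAGGAA at 155 and 53 bases before the start, the Cbr2 window at 79, and the Trem2 window at 40 on the opposite strand. TGCTGA stood 220 bases before the first Folr2 start and 19 before the second. TGANTCA stood 74 bases before the second Folr2 start and 9 before the Trem2 start. The Mrc1 window held 3 copies of GAGGAA and the Axl window 1, whereas the Cd163 and Mertk windows held none of the 3 motifs. Of 32851 RefSeq promoter windows of the same length, 23.3% held GAGGAA, 16.1% TGCTGA and 6.75% TGANTCA. These matches describe letters only.

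The macrophage-like wells were named from a list of markers that held none of the members. Detection of those markers is therefore no separate check of the name. Of that list, Ctss was detected in 98.2% of the 623 wells, Laptm5 in 97.3%, Fcer1g in 97.0%, Csf1r in 91.8% and C1qb in 88.0%. C1qa was in 77.5%, Fcgr1 in 75.6% and Ms4a7, the lowest, in 68.7%. The most often seen markers of fibroblasts and cardiomyocytes were Col3a1 (75.3% of these wells) and Actc1 (69.5%). The macrophage-like wells numbered 21 at day 1 sham, 7 at day 14 sham, 112 at IR day 1, 195 at IR day 3, 6 at IR day 14 and 282 at MI day 3. Median depth was 5756 UMIs per well at day 1 sham, 8885 at IR day 1, 8383 at IR day 3 and 22834 at MI day 3. Levels are given as CPM, the member's UMIs as a share of all nuclear UMIs scaled to a sum of 1e+06, in the summed macrophage-like wells of a plate, for plates with at least 3 such wells. That left 3 plates at day 1 sham, 1 at day 14 sham (4 wells), 9 at IR day 1, 6 at IR day 3, 1 at IR day 14 (6 wells) and 5 at MI day 3. Plate sums ranged from 16809 UMIs at day 14 sham to 1983741 at MI day 3. CPM depends on how well each gene's RNA is captured, so levels are compared between samples and not between genes.

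Most members were counted mainly in macrophage-like wells. These wells held 95.1% of all Msr1 UMIs in the wells used, 94.5% of Trem2, 94.0% of Vsig4, 93.03% of Cd163, 92.8% of Mrc1, 91.5% of Folr2 and 87.0% of Cbr2. Mertk followed with 72.8%, and 13.1% of its UMIs lay in endothelial-like wells. Lyve1 was divided between classes, with 61.7% in macrophage-like and 30.4% in endothelial-like wells. Axl went the other way, with 11.2% of its UMIs in macrophage-like wells and 76.9% in fibroblast-like wells.

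With every well thinned to 1000 UMIs, Msr1 was detected in 40.1% of macrophage-like wells (85.4% unthinned) and Mrc1 in 37.6% (76.7%). Trem2 was detected in 28.6% (75.9%), Cbr2 in 22.5% (60.8%) and Folr2 in 18.8% (59.9%). In cardiomyocyte-like wells, which should lack these genes, the thinned shares were 2.29% for Mrc1, 1.85% for Cbr2, 1.23% for Msr1, 0.792% for Folr2 and 0.704% for Trem2. Median depths were 12226 and 2278 UMIs in the macrophage-like and cardiomyocyte-like wells. Cd163 (8.35% thinned, 22.2% unthinned), Lyve1 (7.70%, 15.1%), Vsig4 (2.73%, 4.65%) and Mertk (1.77%, 23.6%) were seen in fewer macrophage-like wells, against 0.0880%, 0.616%, 0.0880% and 0% of cardiomyocyte-like wells after thinning. Axl was seen in 11.2% of macrophage-like wells after thinning (45.3% before), and in 52.9% of fibroblast-like and 1.41% of cardiomyocyte-like wells. No well was shallower than the 1000 UMIs used for thinning.

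**Figure D1:**
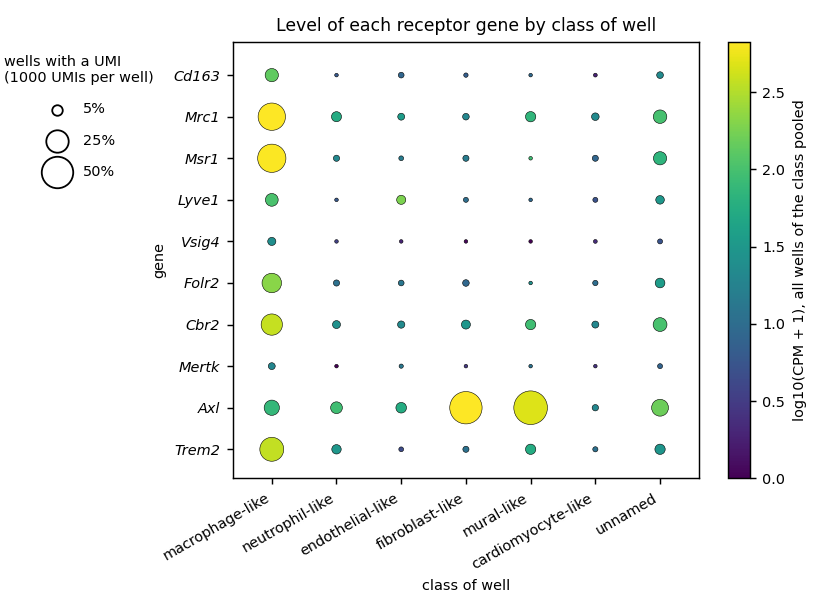
The 10 members (rows) in each class of wells (columns): colour is the pooled level as log10(CPM + 1), and point size is the percent of wells with a UMI after thinning each well to 1000 UMIs. Axl is highest in the fibroblast-like and mural-like columns (668 and 474 CPM against 75.3 in macrophage-like wells), and Lyve1 is present in the macrophage-like and endothelial-like columns.

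Within macrophage-like wells the members did not mark the same cells. Clustering that left the members out of its variable genes divided these wells into 3 groups, which are described here without a test. The smallest, of 39 wells, was led by Cd209f, Lyve1 and Clec10a, and 35 of its wells (89.7%) had a UMI of at least 3 of the 5 genes Lyve1, Cd163, Folr2, Cbr2 and Vsig4. The second, of 304 wells, was led by Gpnmb, Ms4a7 and Cd68, and there 63 wells (20.7%) met that count. The third, of 280 wells, had Ccr2, Saa3 and Cd74 among its leading genes, with 38 such wells (13.6%).

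Median depth was 4531 UMIs per well in the Lyve1 group, 12215 in the Gpnmb group and 14041 in the Ccr2 group, so the highest co-detection came with the lowest depth. Pooled Lyve1 was 2626 CPM in the Lyve1 group, 32.3 in the Gpnmb group and 40.4 in the Ccr2 group. Cbr2 followed the same order of the first group over the rest, with 3612, 383 and 202 CPM, as did Folr2 with 1347, 252 and 104 CPM. Cd163 was 1003, 89.2 and 138 CPM, and Vsig4 324, 23.2 and 7.21 CPM. These 5 genes therefore sat highest in the same 39 wells.

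Msr1 and Trem2 had other orders. Msr1 was lowest in the Lyve1 group, at 406 CPM, and reached 602 in the Gpnmb group and 692 in the Ccr2 group. Trem2 was 266 CPM in the Lyve1 group, 486 in the Gpnmb group and 259 in the Ccr2 group. Mrc1, at 2326, 768 and 452 CPM, was also highest in the Lyve1 group. Axl was 167, 70.7 and 75.2 CPM in the same order. Mertk was 27.3 CPM in the Lyve1 group, from 8 UMIs, with an exact Poisson interval of 11.8 to 53.8 that held the 24.5 of the Gpnmb group and the 12.98 of the Ccr2 group. At IR day 3 no Mertk UMI was found in the 12 wells of the Lyve1 group, which allows up to 102.8 CPM by the same interval, beside 39.3 CPM in the Gpnmb group and 17.4 in the Ccr2 group. No UMI of any member was found in 15 wells, all of them in the Ccr2 group.

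**Figure D2:**
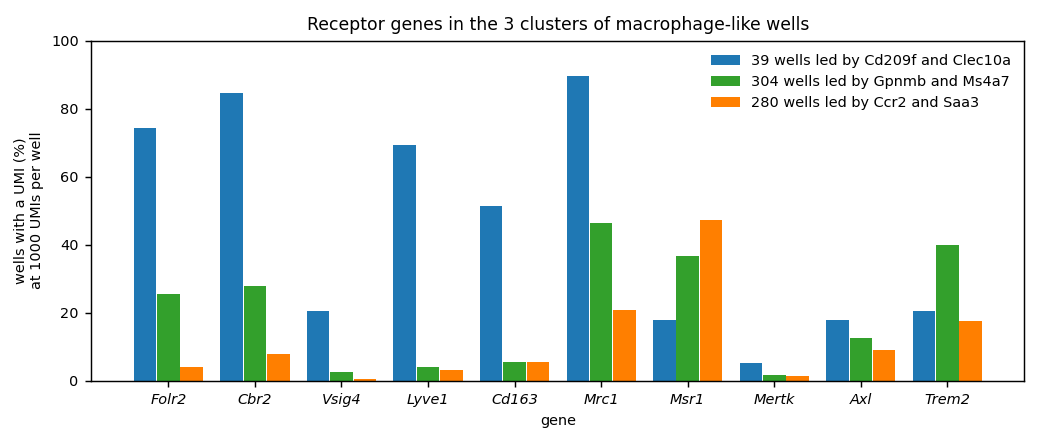
Percent of wells with a UMI of each member, after thinning each well to 1000 UMIs, in the 3 groups of macrophage-like wells found without the members (bars, 39, 304 and 280 wells). Lyve1 is seen in 69.2% of the 39 wells led by Cd209f against 3.95% and 3.21% of the others, while Trem2 is highest in the Gpnmb group (39.8%) and Msr1 in the Ccr2 group (47.1%).

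The make-up of the class differed between conditions. The Lyve1 group held 61.9% of the day 1 sham wells, 2.68% at IR day 1, 6.15% at IR day 3 and 1.06% at MI day 3. The Ccr2 group held 82.1% at IR day 1, 11.3% at IR day 3 and 55.7% at MI day 3. The Gpnmb group held 15.2%, 82.6% and 43.3% at those times. The comparisons that follow treat the class as a whole, so most wells came from the Ccr2 group at IR day 1 and from the Gpnmb group at IR day 3.

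Pairs of members were also detected in wells outside the Lyve1 group. That group held 35 of the 94 wells with a Lyve1 UMI and 10 of the 29 with a Vsig4 UMI. Of the 94 wells with a Lyve1 UMI, 56 (59.6%) also had Cd163, against 15.5% of the wells without Lyve1, although the Lyve1 wells were no deeper (medians of 10270.5 and 12394 UMIs). Of the 29 wells with Vsig4, 20 (69.0%) had Lyve1, against 12.5% of the rest. All 5 of Lyve1, Cd163, Folr2, Cbr2 and Vsig4 were found together in 13 wells, 6 of them in the Lyve1 group, 6 in the Gpnmb group and 1 in the Ccr2 group, and the median well had 5 of the 10 members.

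The members also differed in how many wells carried them. The 11 wells richest in Cd163 held 50% of its 1561 UMIs, as did 8 wells for the 1175 Lyve1 UMIs and 3 wells for the 265 Vsig4 UMIs. The same share took 64 wells for Mrc1, 84 for Msr1, 83 for Trem2, 50 for Folr2 and 30 for Cbr2. Plate values of Cd163, Lyve1 and Vsig4 thus rested on few wells.

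The haemoglobin, mannose and class A receptors are described first by plate. Cd163 was 107, 369 and 206 CPM on the 3 day 1 sham plates. It ranged from 0 to 1771 with a median of 114 at IR day 1, and from 8.85 to 747 with a median of 167 at IR day 3. The MI plates held 97.0, 140.1, 181, 196 and 109 CPM. All groups of Cd163 values overlapped, and the 1771 CPM of IR day 1 replicate 4 came from 170 UMIs in a single well.

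Mrc1 was 778, 1293 and 1293 CPM at day 1 sham. At IR day 1 it ranged from 44.4 to 2126 with a median of 421, and at IR day 3 from 627 to 2615 with a median of 1028. At MI day 3 it was 677, 548.5, 414, 645 and 426 CPM, below each day 1 sham plate. Msr1 was 854, 772 and 206 CPM at day 1 sham, 336 to 1202 with a median of 821 at IR day 1, and 226 to 756 with a median of 434 at IR day 3. The MI plates held 723, 705, 549.6, 761 and 573 CPM of Msr1, inside the range of IR day 1 and overlapping IR day 3, with 1 plate (761) above the highest of that group.

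Among the genes of resident macrophages, Folr2 separated IR day 1 from day 1 sham and from IR day 3 by plate. It was 488, 705 and 735 CPM at day 1 sham. At IR day 1 it ranged from 0 to 230.0 with a median of 44.6, so all 9 plates lay below all 3 sham plates. At IR day 3 it ranged from 236 to 849 with a median of 416, so all 6 plates lay above all 9 of IR day 1, while they overlapped day 1 sham, with 2 plates above its range and 3 below. The MI plates held 136.5, 144, 122, 255 and 224 CPM, all below day 1 sham and overlapping both IR day 1 and IR day 3.

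Cbr2 was 412, 1628 and 1881 CPM at day 1 sham. It ranged from 27.85 to 732.5 with a median of 137.5 at IR day 1, where 8 of 9 plates lay below the lowest sham plate, and from 236 to 2208 with a median of 492 at IR day 3. The MI plates held 203, 327, 210.2, 525 and 454 CPM. Lyve1 was 442, 1309 and 735 CPM at day 1 sham, 0 to 459 with a median of 108 at IR day 1 and 0 to 1460 with a median of 144 at IR day 3. At MI day 3 it was 45.8, 41.3, 8.61, 73.1 and 329 CPM, below every day 1 sham plate.

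Vsig4 was rare. It was 60.99, 336 and 0 CPM at day 1 sham, and of the 9 IR day 1 plates it was found on replicate 5 (18.7 CPM) and replicate 8 (21.4 CPM) alone. At IR day 3 it ranged from 0 to 408 with a median of 44.8, and at MI day 3 it was 1.07, 12.1, 10.8, 29.6 and 10.5 CPM. A plate at 0 allows a level of up to 3 counts of its sum, which was 85.9 CPM on the shallowest IR day 1 plate and 9.80 CPM on the deepest.

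Of the receptors for dying cells and lipids, Trem2 was 15.25, 185 and 323 CPM at day 1 sham. It ranged from 28.6 to 255 with a median of 131 at IR day 1, and from 169.8 to 771 with a median of 405.5 at IR day 3, where 4 of 6 plates lay above all IR day 1 plates. At MI day 3 it was 354, 390.2, 331.5, 427 and 361 CPM, a narrower range than in the other replicated groups and above every day 1 sham plate. Axl was 289.7, 134 and 118 CPM at day 1 sham, 31.3 to 229 with a median of 109 at IR day 1, and 56.0 to 543 with a median of 95.5 at IR day 3. The MI plates held 69.3, 31.25, 92.6, 73.1 and 50.3 CPM of Axl, below each day 1 sham plate. Mertk was 45.75, 16.8 and 88.2 CPM at day 1 sham, 0 to 20.8 with a median of 0 at IR day 1, 0 to 102 with a median of 26.7 at IR day 3, and 20.3, 12.6, 12.2, 14.5 and 14.7 CPM at MI day 3.

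At day 14 a single plate stood for each group. The sham plate held 6009 CPM of Cbr2, 3570 of Mrc1, 3153 of Folr2, 2439 of Lyve1, 2023 of Cd163, 357 of Axl and 59.5 of Msr1 and of Mertk, with Vsig4 and Trem2 at 0. Its 4 wells all belonged to the Lyve1 group, and at its depth a count of 0 allows up to 178 CPM. The IR day 14 plate held 2651 CPM of Mrc1, 2149 of Cbr2, 1337 of Lyve1, 1003 of Folr2, 406 of Cd163, 310.4 of Trem2, 239 of Msr1, 215 of Axl and 143 of Vsig4, with Mertk at 0. No test was made between these 2 plates.

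**Figure D3:**
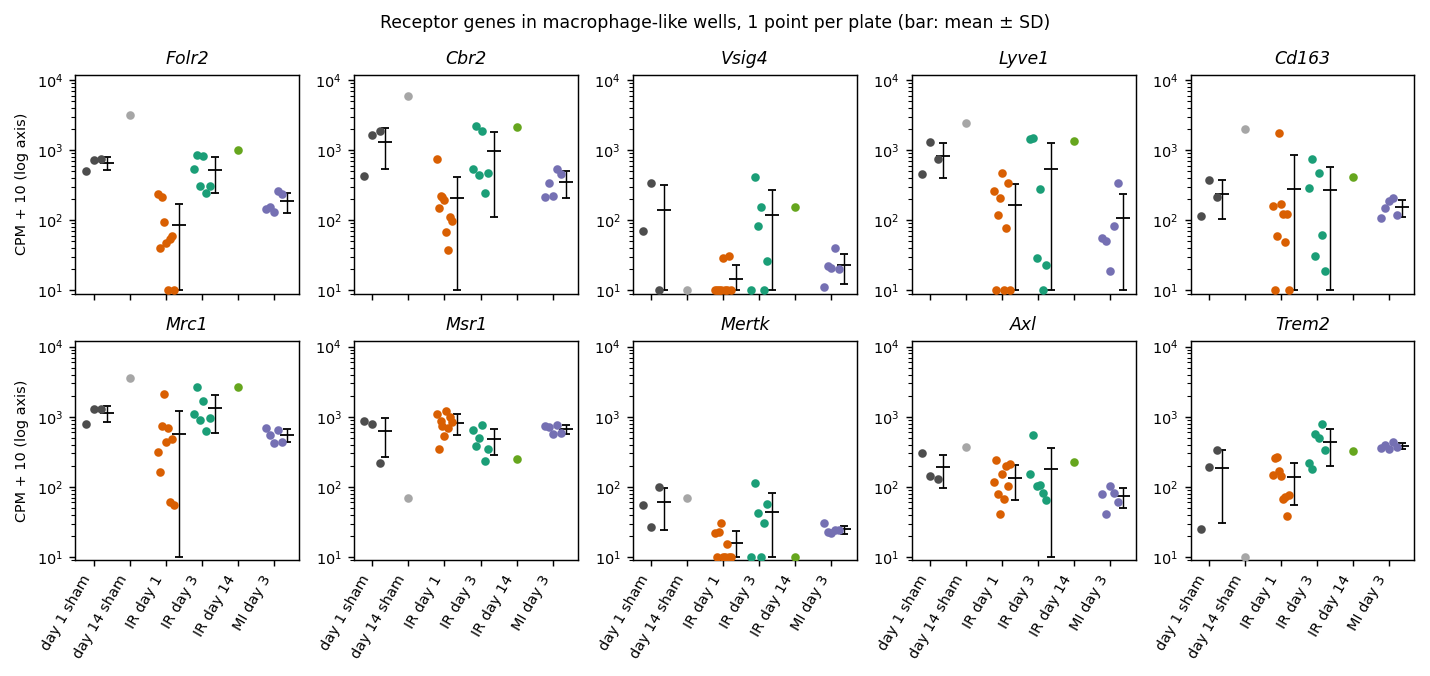
Level of each member by plate in macrophage-like wells (CPM + 10, log axis), each point a plate with at least 3 such wells, bars the mean ± SD where a group has at least 2 plates, stopped at 0 CPM where the SD exceeds the mean. Folr2 at IR day 1 (0 to 230.0 CPM) lies below both day 1 sham (488 to 735) and IR day 3 (236 to 849), and Trem2 at MI day 3 (331.5 to 427) lies closer together than in the other replicated groups.

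The first question was how the members stood 1 day after reperfusion. Folr2, Cbr2 and Vsig4 were lower in macrophage-like wells at IR day 1 than at day 1 sham. Folr2 was 75.8 ± 84.7 CPM (SD, n = 9) against 643 ± 135 (SD, n = 3), a log2 fold change of −2.66 ± 0.48 (SE; adjusted p = 0.00198). Cbr2 was 195 ± 212 against 1307 ± 786 CPM, a log2 fold change of −2.55 ± 0.57 (adjusted p = 0.0124). Vsig4 was 4.46 ± 8.88 against 132 ± 179 CPM, a log2 fold change of −4.87 ± 1.22 (adjusted p = 0.0253). All p-values across genes come from edgeR's quasi-likelihood test with Benjamini-Hochberg adjustment over the whole table.

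Thus 3 of the 9 members tested passed at an adjusted p under 0.05, all lower, where 2.2% of all 5322 genes passed and 1.62% were lower. The median over the 9 members was −0.97, and over all genes 0.11. The calls of Cbr2 and Vsig4 depended on single sham plates: without day 1 sham replicate 3, Vsig4 was at −2.99 (adjusted p = 0.546) and Cbr2 at −2.39 (adjusted p = 0.083), and without replicate 4, Cbr2 was at −2.18 (adjusted p = 0.159). With DESeq2 the adjusted p of Vsig4 was 0.0712. Folr2 stayed past the threshold without any single plate.

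Lyve1, at −2.17 ± 0.96 (adjusted p = 0.246), and Mrc1, at −0.97 ± 0.57 (adjusted p = 0.409), did not pass. Msr1 was at 0.38 (adjusted p = 0.627), Axl at −0.61 (adjusted p = 0.622), Cd163 at 0.27 ± 1.09 (adjusted p = 0.936) and Trem2 at −0.16 (adjusted p = 0.929). In thinned wells, Folr2 was detected in 38.1% of 21 wells at day 1 sham and 7.14% of 112 wells at IR day 1, and Cbr2 in 38.1% and 11.6%. Mertk did not pass the filter on low counts in any of these comparisons.

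From day 1 to day 3 of reperfusion Folr2, Cbr2, Vsig4 and Trem2 rose in macrophage-like wells and Msr1 fell. Folr2 went from 75.8 ± 84.7 (SD, n = 9) to 508 ± 275 CPM (SD, n = 6), a log2 fold change of 2.10 ± 0.40 (adjusted p = 0.000272). Trem2 went from 127 ± 81.9 to 421 ± 229 CPM, a log2 fold change of 1.69 ± 0.37 (adjusted p = 0.000927). Cbr2 rose by 1.90 ± 0.49 (adjusted p = 0.00449) and Vsig4 by 3.68 ± 1.05 (adjusted p = 0.0091). Msr1 went from 803 ± 271 to 471 ± 198 CPM, a log2 fold change of −0.93 ± 0.27 (adjusted p = 0.0113).

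These were 5 of 9 members, where 25% of all genes tested passed, with 10.8% of all genes higher and 14.1% lower. The median over the members was 1.06, against −0.06 over all genes. The call of Msr1 was lost without IR day 3 replicate 6 (−0.68, adjusted p = 0.0762) or replicate 7 (−0.81, adjusted p = 0.0573), and with wells thinned to 1000 UMIs (−0.49, adjusted p = 0.298), where Trem2 and Vsig4 no longer passed the filter on low counts. Mrc1 was at 1.06 ± 0.45 (adjusted p = 0.0845), and without IR day 1 replicate 4, where a single well held 167 of 204 UMIs, it was at 1.77 (adjusted p = 0.00114).

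Lyve1, at 0.80 ± 0.92 (adjusted p = 0.581), Cd163, at −1.11 ± 0.93 (adjusted p = 0.423), and Axl, at −0.24 ± 0.41 (adjusted p = 0.728), did not pass, and their spread between plates was wide. Without IR day 1 replicate 4, Cd163 was at 0.48. Mertk, which the filter on low counts removed, passed when no filter was used (2.23 ± 0.53, adjusted p = 0.000944) and on plates with at least 5 wells (2.24, adjusted p = 0.00497). In thinned wells Folr2 was detected in 7.14% at IR day 1 and 28.7% at IR day 3, Trem2 in 11.6% and 36.4%, Cbr2 in 11.6% and 31.8%, and Msr1 in 46.4% and 32.3%.

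Between IR day 1 and IR day 3 the Gpnmb group went from 17 of 112 to 161 of 195 macrophage-like wells, and inside the groups of wells the members took different directions. In the Ccr2 group, pooled Folr2 was 23.3 CPM at IR day 1, 152 at IR day 3 and 118 at MI day 3, and Cbr2 was 50.9, 322 and 230.5 CPM. Trem2 in that group was 118, 270.0 and 292 CPM, and Msr1 was 814, 518 and 674 CPM. Of the 17 wells of the Gpnmb group at IR day 1, 13 lay on replicate 3, so its IR day 1 values rest largely on that plate. In the Gpnmb group Folr2 and Cbr2 were instead lower at IR day 3. Folr2 was 487 CPM in that group at IR day 1, 316 at IR day 3 and 201 at MI day 3. Cbr2 was 584, 441 and 342 CPM there. Msr1 was 760.6, 435 and 695 CPM in the Gpnmb group, and Trem2 was 335, 519 and 475.5 CPM. Vsig4 was 12.2 CPM in that group at IR day 1, from 2 UMIs. At IR day 3 it was 38.8 CPM, from 78 UMIs in 6 wells, and a single well held 64 of these UMIs. These pooled values carry no test, and the part of the make-up of the wells in the differences over all macrophage-like wells was not tested.

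**Figure D4:**
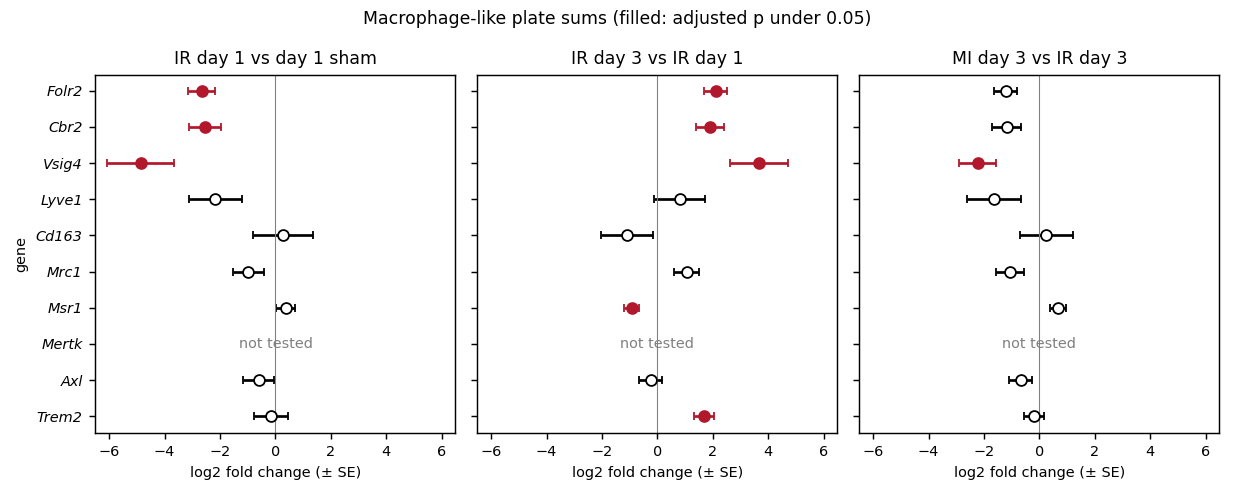
Log2 fold change ± SE of the members tested in macrophage-like wells for IR day 1 against day 1 sham, IR day 3 against IR day 1 and MI day 3 against IR day 3; filled points have an adjusted p under 0.05. Folr2, Cbr2 and Vsig4 are lower at IR day 1 than at sham and higher at IR day 3 than at IR day 1, and Msr1 is the member called lower at IR day 3.

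Markers of other cells were counted in the same macrophage-like plate sums. Cardiomyocyte markers together ranged from 1723 to 2616 CPM at day 1 sham, 143 to 1045 at IR day 1, 705 to 3670 at IR day 3 and 151 to 789 at MI day 3. Fibroblast markers ranged from 91.5 to 176, from 10.4 to 1159, from 268 to 1325 and from 649.8 to 1971 CPM in that order. Neutrophil markers ranged from 151 to 610 (median 382), from 104 to 2205 (median 757.6), from 70.5 to 238 (median 105) and from 486 to 1019 CPM (median 791) over the same 4 groups. The macrophage markers, none of them a member, ranged from 13890 to 21660, from 6623 to 16360, from 19890 to 28510 and from 13750 to 17760 CPM. The part of these levels in the differences between groups was not tested. In 32 macrophage-like wells, marker UMIs of another class outnumbered those of the macrophage markers. Without these wells, the 5 members called between IR day 1 and IR day 3 stayed called. Wells with fewer marker UMIs of another class were kept.

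Permanent ligation and reperfusion were compared at day 3. The median mitochondrial share of UMIs in the macrophage-like wells was 7.59% at MI day 3 and 13.35% at IR day 3, beside 17.25% at IR day 1 and 17.1% at day 1 sham, and its part in the differences was not tested. Vsig4 was lower at MI, with 12.8 ± 10.4 CPM (SD, n = 5) against 107 ± 158 (SD, n = 6) and a log2 fold change of −2.23 ± 0.68 (adjusted p = 0.0343). It was the 1 member of 9 called, where 9.08% of all genes passed and 2.99% were lower. Without IR day 3 replicate 3 or 4 or MI replicate 1, 2, 3 or 5 the fold change was −1.84 to −2.30, with adjusted p from 0.0569 to 0.165, past the threshold in none of the 6. Folr2, at 176 ± 59.4 against 508 ± 275 CPM, had a log2 fold change of −1.22 ± 0.41 (adjusted p = 0.0567), which passed without IR day 3 replicate 6 (adjusted p = 0.0331) or MI replicate 4 (adjusted p = 0.0483) and under 8 other settings. The call of Vsig4 was also lost with DESeq2 (adjusted p = 0.137).

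Cbr2 was at −1.18 ± 0.54 (adjusted p = 0.176), Mrc1 at −1.06 ± 0.52 (adjusted p = 0.215), Lyve1 at −1.64 ± 0.98 (adjusted p = 0.334) and Axl at −0.68 ± 0.40 (adjusted p = 0.326). Msr1 was at 0.68 ± 0.29 (adjusted p = 0.153), Trem2 at −0.20 ± 0.37 (adjusted p = 0.816) and Cd163 at 0.26 ± 0.96 (adjusted p = 0.923). The median over members was −1.06, and over all genes 0.08. For the members that missed the threshold, a like level in both injuries was not shown.

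Day 3 was also set against sham, weighting day 1 and day 14 sham equally. At MI day 3 Folr2 was lower (−2.68 ± 0.47, adjusted p = 0.00115), as was Cbr2 (−2.69 ± 0.61, adjusted p = 0.00897), which made 2 of 9 members where 3.44% of all genes passed and 1.24% were lower. There 7 had an unadjusted p under 0.05, and DESeq2 called 3. Lyve1 passed at MI without MI replicate 5 (−4.73, adjusted p = 0.00931) or day 1 sham replicate 2 (−3.66, adjusted p = 0.046), Msr1 without day 1 sham replicate 2 (2.28, adjusted p = 0.0305) or 3 (2.22, adjusted p = 0.0413), and Trem2 without day 1 sham replicate 4 (6.25, adjusted p = 0.0453). At IR day 3 none of 9 passed by edgeR's test, where 1.09% of all genes passed, although 4 had an unadjusted p under 0.05, and DESeq2 called 0. Here the 4-well day 14 sham plate, with Trem2 and Vsig4 at 0, carried the weight of its whole group, and the median over all genes was 0.51 for IR and 0.59 for MI.

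Against day 1 sham alone, which is what plates with at least 5 wells left, those medians were 0.06 and 0.07. Folr2 then stayed lower at MI (−1.85 ± 0.48, adjusted p = 0.0379), and Cbr2 did not pass (−1.91, adjusted p = 0.104). Vsig4 became called (−3.46 ± 0.92, adjusted p = 0.0388), with the opposite sign to its fold change with both sham groups. The direction of Vsig4 at MI against sham thus depended on the sham plates used. Trem2 against sham was 6.07 ± 1.77 (adjusted p = 0.0917) at IR day 3 with both sham groups, and passed without IR day 3 replicate 1 (6.27, adjusted p = 0.0495) or replicate 3 (6.28, adjusted p = 0.0374). It was 1.56 ± 0.60 (adjusted p = 0.136) with day 1 sham alone. Both day 3 comparisons used the same sham plates, and the IR plates served in more than 1 comparison, so these values are not independent of each other.

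Partner genes were counted by list in the macrophage-like fits, as counts of genes past the threshold and medians. Between IR day 1 and IR day 3, where 10.8% of all genes were higher and 14.1% lower, 3 of 8 tested TAM ligands and partners were higher and 1 lower, with a median of 0.44. Gas6, the ligand of Mertk and Axl, rose by 2.75 ± 0.48 (adjusted p = 8.14e-05), Mfge8, a bridge between dying cells and integrins, by 2.35 ± 0.48 (adjusted p = 0.000449), and Pros1 by 0.95 ± 0.34 (adjusted p = 0.0348). Socs3, an inhibitor of cytokine signalling, fell (−1.49 ± 0.39, adjusted p = 0.0046). Of 8 Trem2 partners, 2 were higher and none lower, with a median of −0.05: Apoe, a lipoprotein that Trem2 binds, at 2.29 ± 0.31 (adjusted p = 2.51e-06), and Clu, another such protein, at 2.64 ± 0.49 (adjusted p = 0.000187).

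Of 15 other scavenger receptors, 6 were higher and 2 lower at IR day 3, with a median of 1.09. Cd5l was at 0 UMIs at IR day 1 and 217 UMIs at IR day 3, at least 36.2-fold higher against a floor of 3 counts over the group, and Cd209f went from 0 to 46 UMIs, at least 7.67-fold higher. Cd68, a lysosomal receptor, rose (1.5 ± 0.27, adjusted p = 0.000117), and Clec4n, a lectin, fell (−1.62 ± 0.45, adjusted p = 0.00728). Of 16 engulfment and lipid efflux genes, 6 were higher and none lower, with a median of 0.64, led by the lysosomal protease Ctsd (2.02), the sterol exporter Abcg1 (1.54), Npc2 (1.22) and Lamp1 (1.17).

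Of 11 genes of haem and iron handling, the 1 called was Hp, haptoglobin, the carrier that Cd163 binds (−2.56 ± 0.41, adjusted p = 3.16e-05; median of the list 0.16). Of 17 resident macrophage genes, 8 were higher and none lower, with a median of 1.03, Igf1 at 3.17 and Fcna at 3.06 after Cd209f. Of 15 recruited monocyte and macrophage genes, 10 were lower and 1 higher, with a median of −1.95. Vcan, a matrix proteoglycan, was at −4.51, and Gpnmb, the one that rose, was at 5.93. The median of all genes in this comparison was −0.06.

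At IR day 1 against sham, 2.2% of all genes passed and 1.62% were lower. Gas6 (−2.36), Igf1 (−2.21) and C1qc (−1.61) were the 3 of 17 resident genes called, all lower, with a median of −1.27. Apoe was lower (−2.39 ± 0.35, adjusted p = 0.000203), the 1 of 8 Trem2 partners called (median 0.12), and Gas6 was the 1 of 8 TAM partners (median −0.24). Hmox1, which breaks down haem, was higher (2.51 ± 0.63, adjusted p = 0.0253), the 1 of 11 haem and iron genes (median 0.05). None of the 15 other scavenger receptors, 16 engulfment genes or 15 recruited genes was called, with medians of 0.00, −0.08 and 0.87.

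At MI against IR day 3, where 9.08% of all genes passed and 2.99% were lower, 7 of 15 recruited genes were higher and 1 lower, with a median of 1.15, among them Thbs1 (2.59). Hp (2.36) and Hmox1 (1.85) were the 2 of 11 haem and iron genes called, both higher (median 0.03). Of the TAM partners Socs3 was higher (1.29) and Mfge8 lower (−1.28), with a median of −0.21. Clu, the 1 Trem2 partner called, was lower (−3.24, median −0.02), as was Abcg1 among the engulfment genes (−1.50, median −0.12). Of the resident genes Ltc4s was higher (2.05), and Igf1 (−2.35) and Wwp1 (−1.28) were lower, with a median of −0.01. None of the other scavenger receptors was called (median −0.21).

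Over the 15 macrophage-like plate sums with at least 10 wells, the genes whose level followed a member most closely were found by Spearman's rho, as a description. Folr2 stood with Pmp22 (0.96), Stard8 (0.95) and Cbr2 (0.92), and Cbr2 with Folr2, Mapk14 (0.91) and Pmp22 (0.89). Trem2 stood with 0610031J06Rik (0.93), Fam46c (0.93) and Mpc1 (0.91), and Mrc1 with Vps26b (0.91), Gpr146 (0.91) and Fam102b (0.90). Cd163 was most like Tex261 (0.83), Setd1a (0.82) and Hpgd (0.78), and Lyve1 most like Relt (0.86), Hgsnat (0.84) and Tank (0.81). Msr1 was most like Sacm1l (0.84), Nmt1 (0.83) and Arih1 (0.82), and Axl most like Rnps1 (0.76), Crebzf (0.76) and Cdk8 (0.75). Vsig4 stood with Ap3b1 (0.88), Pts (0.88) and Fam174a (0.87), and Mertk with Sdha (0.95), Arl11 (0.95) and Anxa1 (0.93). Among the members, Folr2 and Trem2 had a rho of 0.62, Mertk and Mrc1 0.62, Lyve1 and Cd163 0.46, and Mertk and Msr1 −0.50. Lyve1 had a rho of 0.0 with Folr2 and 0.15 with Cbr2, and Cd163 of 0.06 and 0.29 with the same genes. The plates share condition, depth and batch, and these values are the highest of 5322 genes.

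Outside the macrophages, Lyve1 was found in endothelial-like wells. There 29 of 392 wells had a Lyve1 UMI, 24 of them in 1 cluster, and the pooled level was 182.5 CPM. Of the 29, 23 (79.3%) also had a UMI of Prox1, Flt4, Reln or Mmrn1, markers of lymphatic endothelium, against 117 (32.2%) of the 363 wells without Lyve1. These shares rested on Flt4, found in 23 of the 29 and 111 of the 363. Prox1, Reln and Mmrn1 were in 3, 6 and 6 of the 29, and in 4, 4 and 6 of the 363. The share with any of the 4 was 72.7% in endothelial-like wells with Mrc1, 63.0% with Mertk and 57.3% with Axl. The wells with Lyve1 were deeper, with a median of 9568 UMIs against 3566, and at least 2 of these 4 markers were found in 7 of the 29 and 4 of the 363. By plate, endothelial-like Lyve1 was 8.41, 0, 507 and 8.94 CPM at day 1 sham, and 0 on 3 of 4 plates of day 14 sham and 1039 on the other, replicate 8, the highest of these plates. The same replicate 8 sum also held 438.5 CPM of Cbr2, 415.5 of Mrc1, 231 of Folr2 and 162 of Cd163. On the other day 14 sham plates these were at most 35.3, 0, 25.9 and 25.3 CPM. Macrophage markers in the endothelial-like sums ranged from 25.2 to 544.7 CPM at day 1 sham, 27.4 to 3970 at day 14 sham, 81.7 to 1305 at IR day 1, 315 to 2774 at IR day 3 and 448.5 to 1295 at MI day 3, and their part in the Lyve1 level was not tested. Endothelial-like Lyve1 ranged from 0 to 864 CPM with a median of 11.4 at IR day 1. It was 0, 0, 629.8 and 31.5 CPM at IR day 3 and 293, 222, 21.9, 81.7 and 449.5 CPM at MI day 3, so all groups overlapped. Lyve1 and Mrc1 were the 2 members that passed the filter there, and edgeR's test called 0 of them against sham at IR day 1, IR day 3 or MI day 3, where 15.6%, 1.95% and 34.5% of all genes passed. None had an unadjusted p under 0.05, and DESeq2 called 0. With a replicate block, however, Lyve1 was called at IR day 1 and at MI day 3. With no gene filter 1 member was called at IR day 3 and at MI day 3. The shares of all genes for these settings are given below.

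Axl was counted mainly in fibroblast-like wells. Its pooled level was 668 CPM in fibroblast-like wells, 474 in mural-like wells and 75.3 in macrophage-like wells, and 284 of 316 fibroblast-like wells had a UMI. By plate it was 1650, 1549 and 1927 CPM at day 1 sham and 1254 on the 1 plate of day 14 sham. It ranged from 677 to 1472 CPM over the 8 plates of IR day 1, all below day 1 sham. At IR day 3 it was 1079, 763, 497 and 773.5 CPM, at IR day 14 it was 543 and 1015 CPM, and at MI day 3 it was 612, 553, 612, 555 and 479.5 CPM. Each day 1 and day 3 injury group thus lay below the 3 day 1 sham plates.

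The mean of Axl was 1059 CPM at IR day 1 (n = 8), 62.0% of the 1708 at day 1 sham (n = 3). It was 778 CPM at IR day 3 (n = 4), 45.6% of sham, and 562 CPM at MI day 3 (n = 5), 32.9% of sham. These are values with no test. Median depth of the fibroblast-like wells was 3739 UMIs at day 1 sham, 11259 at IR day 1, 2696 at IR day 3 and 45195.5 at MI day 3.

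The fibroblast-like wells were not of the same make-up in each group. At day 1 sham 23 of 27 lay in a group led by Pi16, which is known from adventitial fibroblasts, and 4 in one led by Clec3b. At IR day 1, 41 of 51 lay in a group led by Timp1 that also carried Tnc, a matrix protein of injured tissue, and 10 in the Pi16-led one. The Timp1-led group held 36 of 71 wells at IR day 3 and 131 of 132 at MI day 3. Inside the Pi16-led group pooled Axl was 1806 CPM at day 1 sham, 1874 at IR day 1 and 1778 at IR day 3. It was 1166 CPM there at day 14 sham and 994.7 at IR day 14, both below the day 1 and day 3 IR values. Inside the Timp1-led group, which had no day 1 sham well, Axl was 1002 CPM at IR day 1, 561 at IR day 3 and 569.6 at MI day 3. In the Clec3b-led group it was 249.5 CPM at day 1 sham and 239.9 at IR day 3, from 2 and 8 UMIs. These pooled values carry no test.

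**Figure D5:**
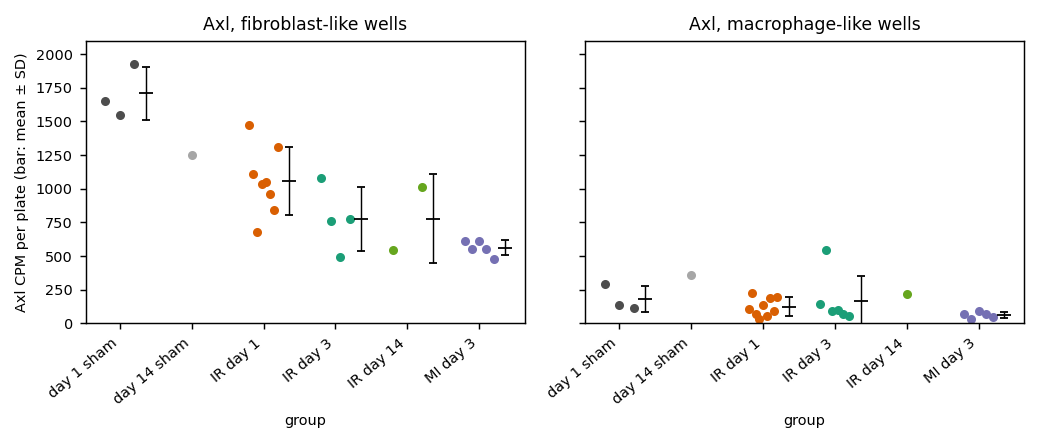
Axl by plate in fibroblast-like and macrophage-like wells (CPM), each point a plate and bars the mean ± SD. In fibroblast-like wells the 3 day 1 sham plates (1549 to 1927) lie above all plates of IR day 1 (677 to 1472), IR day 3 (497 to 1079) and MI day 3 (479.5 to 612), and macrophage-like wells stay below 544 CPM.

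In the edgeR fit of fibroblast-like wells at MI against IR day 3, 8.82% of all genes passed (6.04% lower), and 2 of 7 members tested, Mrc1 and Trem2, were lower. Mrc1 was at −3.17 ± 0.62 (adjusted p = 0.00122) and Trem2 at −2.93 ± 0.77 (adjusted p = 0.0185), while Axl was at −0.57 ± 0.29 (adjusted p = 0.234). On IR day 3 replicate 4 lay 65 Mrc1 UMIs, 49 of them in a single well, and 37 Trem2 UMIs, 32 of them in a single well, against at most 4 and 3 UMIs on the other IR day 3 plates. The macrophage markers together were 4299 CPM on that plate, against 24.9 to 863 on the other IR day 3 plates and 400.4 to 545 on the MI plates. Without that plate Mrc1 was at −1.05 (adjusted p = 0.58), and Trem2 no longer passed the filter on low counts. Without MI replicate 1 or 3 the adjusted p of Trem2 was 0.0553.

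Lastly the members were summed over all wells used of a plate (4 and 7 sham plates, 9, 6 and 3 IR plates and 5 MI plates), where fewer cells of a type and less RNA per cell cannot be told apart. The share of wells that were macrophage-like had a median per plate of 6.13% at day 1 sham, 23.3% at IR day 1, 32.9% at IR day 3, 39.6% at MI day 3 and 0% at IR day 14. Msr1 and Trem2 were the members that stood higher in these sums at both day 3 injuries. Msr1 was 2.21, 139.6, 64.6 and 23.1 CPM at day 1 sham and 0 to 25.4 with a median of 2.06 over 7 day 14 sham plates. It was 82.4 to 462 with a median of 209.8 at IR day 1, 114 to 408 with a median of 216 at IR day 3, and 338, 373, 236, 374 and 246 CPM at MI day 3. Trem2 was 0, 2.37, 15.4 and 31.8 CPM at day 1 sham, 6.94 to 110.3 with a median of 44.3 at IR day 1, 52.5 to 366.5 with a median of 178 at IR day 3, and 166.5, 206, 139, 206.5 and 158 CPM at MI day 3.

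By edgeR's test, 2 of 9 members were called at IR day 1, where 36.8% of all genes passed, 19.8% higher and 17% lower. Msr1 was higher (1.99 ± 0.56, adjusted p = 0.00479) and Vsig4 lower (−2.94 ± 1.09, adjusted p = 0.0311), although without day 1 sham replicate 3 Vsig4 was at −1.34 (adjusted p = 0.532) and without IR day 1 replicate 3 at −2.73 (adjusted p = 0.051). At IR day 3, where 30.2% passed and 18.7% were higher, 4 of 9 were higher: Trem2 (4.99 ± 0.61, adjusted p = 1.67e-07), Msr1 (3.14 ± 0.52, adjusted p = 1.8e-05), Vsig4 (3.24 ± 0.97, adjusted p = 0.00975, and 0.0722 with DESeq2) and Mrc1 (2.31 ± 0.68, adjusted p = 0.00911). At MI day 3, where 56.6% passed and 33.1% were higher, 2 of 9 were higher: Trem2 (4.53 ± 0.61, adjusted p = 1.01e-07) and Msr1 (3.60 ± 0.52, adjusted p = 3.34e-07). At IR day 14 against day 14 sham none was called, where 0.0216% of all genes passed, none had an unadjusted p under 0.05, and DESeq2 called 0. Without day 14 sham replicate 8, the plate with 4 macrophage-like wells, 7 members were called at IR day 3, where 31.1% of all genes passed, and 6 at MI day 3, where 56.5% passed, with Folr2, Cbr2 and Axl added at both.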

How the data were processed

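Single cells of the infarcted part of the left ventricle, or of sham hearts, had been sorted into plates and sequenced by SORT-seq. Per the labels and the submitters' processing notes, reads were aligned with BWA (version not given in the sources used here) to GRCm38/mm10. The authors deposited, for each plate, whole-number counts of UMIs per gene and well, not normalized. The highest value was 4096, the number of 6-base UMIs, so counts were not corrected for shared UMIs. Totals per plate ranged from 176614 to 5551870 UMIs.

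Mitochondrial genes and spike-ins were left out, and wells with at least 1000 nuclear UMIs were used. Wells that repeated another well were dropped. Day 14 sham replicates 2 and 7, whose wells of the same number matched, were taken as deposits of 1 plate and counted as their mean. Their totals were 1278683 and 1135690 UMIs, with 45 and 37 wells of at least 1000 UMIs. Wells were clustered (scanpy 1.11.5, 2000 variable genes, 30 principal components, 15 neighbours, leidenalg 0.10.2 at resolution 1), leaving the 10 members out of the variable genes and the markers. A cluster was named from at least 3 markers, each at 2 times or more the level in other wells and at least 0.5 per 10000 UMIs, with 2 times as many as for any other class. No doublet caller was run. As an alternative, mixed wells were left out, those in which marker UMIs of another class outnumbered those of their own class.

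Wells were summed per plate and class where a plate had at least 3. Sums were fitted with edgeR 4.0.16 (TMM scaling, filterByExpr, quasi-likelihood F test, all groups of a class together, no covariate) and Benjamini-Hochberg adjustment over all genes, with 0.05 as the threshold. On simulated data for IR day 3 against IR day 1 the fit recovered most genes changed by 3 on the log2 scale and few of those changed by 1. Alternatives used DESeq2 1.42.0, RLE scaling, other minimums of wells and UMIs, no gene filter, thinned wells, a replicate block and left-out plates. Shares of wells were taken after thinning each well to 1000 UMIs. Floors of 3 counts cover counting error only.

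The members and the gene lists were chosen with earlier results of these data known. All members are named, and of each list at most the 4 called genes with the largest change per comparison, those of the day 3 against sham comparisons excepted. Results on certain genes of the lists are not reported here. For each member the 3 genes of highest Spearman's rho are named. Promoter windows came from RefSeq (GRCm38.p6).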

Additional observations from a re-analysis of the deposited data

Results flagged for a closer look

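In 6 of 30 sets of macrophage-like plate values (10 members in 3 groups of 5 to 9 plates), 1 plate stood far from the rest by Dixon's test, where chance gives about 1 set in 20. Cd163 at IR day 1 replicate 4 was 1771 CPM, with the nearest plate at 159 CPM, and all 170 UMIs lay in a single well of 25104 UMIs. Mrc1 on the same plate was 2126 CPM, with the nearest at 725, and 167 of its 204 UMIs lay in that well. Lyve1 at MI day 3 replicate 5 was 328.9 CPM, with the nearest at 73.1, and 290 of 314 UMIs lay in a single well of 61778 UMIs. Cbr2 at IR day 1 replicate 1 was 732.5 CPM, with the nearest at 216, and 90 of 121 UMIs lay in a single well of 15233 UMIs.

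Vsig4 at IR day 3 replicate 3 was 407.6 CPM, with the nearest plate at 146 CPM, from 12 UMIs in 5 of 19 wells. Axl on the same plate was 543.4 CPM, with the nearest at 141, from 16 UMIs in 9 wells. The sum of that plate was low, so a few UMIs made these levels. What set these plates apart was not tested.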

How the results depend on the processing

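Of the 451 member fold changes of macrophage-like wells under other settings, 392 kept direction and side of the threshold, 37 newly passed, 7 no longer passed and 15 changed sign. Of 60 shares of wells with a UMI, 37 moved beyond their counting interval when wells were not thinned, and of 180 CPM values 5 moved with copied wells kept, all in macrophage-like wells at day 14 sham. The causes were not tested. With wells thinned to 1000 UMIs, members called were 3 for IR day 3 against IR day 1 (Cbr2, Folr2 and Mrc1; 5 in the report), where 36.4% of all genes passed, 4 for MI against IR day 3 (1 in the report; 20.8% of all genes), 4 for MI against sham (2; 10.3%), 0 in fibroblast-like wells (2; 39.5%) and 1 in all wells at IR day 1 (2; 43.6%), and Cd163 was at 0.78, −1.28 and −0.06 for IR day 3 against IR day 1, MI against IR day 3 and IR day 1 against sham. With no gene filter they were 6 for MI against IR day 3 (5.33% of all genes), 4 for IR day 3 against sham (0.807%), 7 for MI against sham (1.46%), and 1 in endothelial-like wells at IR day 3 (0.791%) and at MI (11.6%). With at least 2000 UMIs per well they were 0, 1 and 5 for MI against IR day 3, IR day 3 against sham and MI against sham, where 8.03%, 2.53% and 4.21% of all genes passed, and Lyve1 was at −0.18 for IR day 3 against IR day 1. For MI against IR day 3, RLE scaling, at least 5 wells and leaving out mixed wells each gave 2, where 8.47%, 8.41% and 9.53% of all genes passed, and leaving out mixed wells gave 1 in fibroblast-like wells (7.05%). DESeq2 gave 1 in all wells at IR day 1 (39.4%), and put Axl at 0.17 for IR day 3 against IR day 1, Cd163 at −0.82 for MI against IR day 3 and Vsig4 at −1.58 for MI against sham. With at least 10 wells Lyve1 was at −0.69 for IR day 3 against IR day 1, and the sham comparisons could not be run. With at least 5 wells, Mrc1, Msr1 and Vsig4 were at 0.11, −0.49 and −1.12 for IR day 3 against sham and Vsig4 at −3.46 for MI against sham. With copied wells kept, Mrc1 was at 0.04 for IR day 3 against sham.

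Replicate numbers did not pair the plates: over 59 same-numbered pairs the correlation of deviations ran from −0.14 to 0.40, and in 0 of 13 comparisons were all pairs over 0.1. With the replicate block, members called were 2 for MI against IR day 3 (4.45% of all genes), 1 in endothelial-like wells at IR day 1 (12.3%) and at MI (32.5%), in both Lyve1, and 0 in fibroblast-like wells (2.14%), with Cd163 at −0.54 for MI against IR day 3 and Trem2 at 0.24 for IR day 1 against sham.

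Leaving out 1 plate at a time, members called in macrophage-like wells ranged from 4 to 7 for IR day 3 against IR day 1 (18.3% to 26.4% of all genes), 0 to 3 for MI against IR day 3 (4.09% to 8.47%), 1 to 3 for IR day 1 against sham (0.407% to 2.94%), 0 to 1 for IR day 3 against sham (0.511% to 4.06%) and 2 to 4 for MI against sham (2.16% to 4.19%). They ranged from 0 to 2 in fibroblast-like wells (4.49% to 10.3%), and in all wells from 1 to 3 at IR day 1 (28.4% to 36.5%), 4 to 7 at IR day 3 (21.7% to 31.9%) and 2 to 6 at MI (50.4% to 56.8%). Fold changes that changed sign ranged from −2.07 to 0.48 (Cd163), −0.29 to 1.29 (Lyve1) and −0.55 to 0.12 (Axl) for IR day 3 against IR day 1, and from −0.45 to 1.2 (Cd163) for MI against IR day 3. They ranged from −1.42 to 0.90 (Cd163) and −0.84 to 0.54 (Trem2) for IR day 1 against sham, and from −0.67 to 0.11 (Mrc1), −0.49 to 1.70 (Msr1) and −1.12 to 4.41 (Vsig4) for IR day 3 against sham. Vsig4 ranged from −3.46 to 2.04 for MI against sham. Mertk, with 217 UMIs in all macrophage-like wells, did not pass the filter on low counts, and 7 macrophage-like wells at day 14 sham and 6 at IR day 14 left no test of day 14 in that class.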

Other observations

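IR day 3 replicates 4 and 7 held 81 and 71 of the 195 macrophage-like wells of their group, with 1 and 2 wells in the group led by Cd209f, and Lyve1 stood at 19.2 and 13.3 CPM. Replicates 1 and 3, with 6 and 19 macrophage-like wells and 1 and 7 of that group, stood at 1445 and 1460 CPM of Lyve1. Replicates 5 and 6, with 10 and 8 macrophage-like wells and 1 and 0 of that group, stood at 268 and 0 CPM of Lyve1. Trem2 was 561 CPM on replicate 4 and 323 on replicate 7, 211.5 and 169.8 on replicates 1 and 3, and 488 and 770.6 on replicates 5 and 6, so plates with few wells held both the lowest and the highest level. Mrc1 was 894, 963, 1093, 2615, 1684 and 627 CPM in the order of replicates 4, 7, 1, 3, 5 and 6. No test was made of these values.

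Among the 29 wells with a Vsig4 UMI, 3 wells held 50% of the 265 UMIs, and the richest held 64.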
